A study of Mus musculus with 6 samples.

Results

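Troponin is the calcium switch of the striated muscle thin filament, and the 7 genes described here encode its subunits: troponin C (Tnnc1, Tnnc2), troponin I (Tnni1, Tnni2) and troponin T (Tnnt1, Tnnt2, Tnnt3). The members were all probe sets of the array whose only gene symbol was one of these, 11 probe sets for 7 of the 18193 genes that had a probe set of 1 symbol. Of the 7 genes, 5 had 1 probe set and 2 (Tnni2 and Tnnt2) had 3. The genes were picked with the contrast of pyruvate with untreated cells already known. Their values in that contrast are therefore a description: no p-value is given for a single member, and counts of calls and 95% intervals only show how the values lie.

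RNA came from C2C12, an established line of mouse myoblasts, which are muscle precursor cells that can fuse into myotubes. The untreated group (3 samples, 1 array each) grew for 72 h in 100 mm dishes, in basal DMEM that held 4 mM L-glutamine, fetal bovine serum at 10% and antibiotics at 1%. The pyruvate group (3 samples, 1 array each) also grew for 72 h, in DMEM made without sodium pyruvate that received the same serum, antibiotics and glutamine plus 50 mM sodium pyruvate. Both groups are labelled undifferentiated, no differentiation medium is named, and the labels leave unsaid whether the basal DMEM held pyruvate. Nothing in the labels says that replicates came from separate dishes, so errors and p-values cover no more than the scatter of these 6 samples, and that scatter may be technical. A control for the added sodium and osmolality is not analysed here.

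In a troponin complex, troponin C binds calcium, troponin I holds back the actin-myosin interaction until calcium is bound, and troponin T anchors both to tropomyosin. Each subunit comes in isoforms: Tnnc2, Tnni2 and Tnnt3 belong to fast skeletal fibres, Tnni1 and Tnnt1 to slow skeletal fibres, Tnnc1 to slow and cardiac muscle, and Tnnt2 to cardiac muscle and to embryonic skeletal muscle. Cultured myoblasts switch several of these genes on together when they differentiate, under the myogenic factors MyoD and myogenin and their MEF2 partners, which bind E-boxes and MEF2 sites in muscle promoters and enhancers.

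Because the 7 genes moved together, the promoter sequences of the 5 that the RefSeq promoter table holds are shown (build GRCm38.p6, 5′ to 3′ on the strand of the gene, the 250 bases before the annotated start). Tnni2 and Tnnt3 have no entry in that table. Tnni1 and Tnnt2 have 2 starts listed each, and the first is shown. Capitals mark the E-box letters CANNTG, the MCAT letters CATTCC on either strand and the TATA letters TATAAA on the sense strand.
Tnnc2, chr2:164779735-164779984, minus strand: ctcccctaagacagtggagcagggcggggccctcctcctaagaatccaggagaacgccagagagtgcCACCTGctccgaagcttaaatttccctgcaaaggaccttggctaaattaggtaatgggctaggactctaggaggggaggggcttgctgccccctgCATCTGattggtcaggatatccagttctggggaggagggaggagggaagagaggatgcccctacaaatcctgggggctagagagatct
Tnnc1, chr14:31208062-31208311, plus strand: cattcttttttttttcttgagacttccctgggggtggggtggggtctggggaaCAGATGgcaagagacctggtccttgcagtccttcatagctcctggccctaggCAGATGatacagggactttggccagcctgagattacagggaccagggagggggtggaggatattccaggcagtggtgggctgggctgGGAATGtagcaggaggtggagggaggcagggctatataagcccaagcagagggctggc
Tnni1, chr1:135799171-135799420, plus strand: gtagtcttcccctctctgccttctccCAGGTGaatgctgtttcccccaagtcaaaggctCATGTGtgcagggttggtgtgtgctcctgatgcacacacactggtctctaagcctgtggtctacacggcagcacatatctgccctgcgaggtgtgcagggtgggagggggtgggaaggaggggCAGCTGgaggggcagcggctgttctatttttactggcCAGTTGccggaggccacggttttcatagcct
Tnnt1, chr7:4515976-4516225, minus strand: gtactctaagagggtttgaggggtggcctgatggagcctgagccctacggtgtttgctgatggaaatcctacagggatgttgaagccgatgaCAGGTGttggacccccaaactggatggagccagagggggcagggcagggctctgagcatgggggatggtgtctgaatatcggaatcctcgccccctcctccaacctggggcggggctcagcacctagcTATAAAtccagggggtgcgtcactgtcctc
Tnnt2, chr1:135836084-135836333, plus strand: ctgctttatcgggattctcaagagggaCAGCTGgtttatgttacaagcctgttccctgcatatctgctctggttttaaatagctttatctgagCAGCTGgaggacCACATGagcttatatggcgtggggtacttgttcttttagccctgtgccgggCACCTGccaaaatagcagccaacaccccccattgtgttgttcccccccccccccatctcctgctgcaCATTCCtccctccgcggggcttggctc

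All 5 sequences held at least 1 CANNTG match, letters that 66.0% of the 27025 gene promoters of the same length held, so an E-box here is common. Tnni1 and Tnnt2 had 4 matches each, Tnnc2 and Tnnc1 had 2 each and Tnnt1 had 1, against a median of 1 over all promoters. At the second listed start Tnni1 had 2 matches and Tnnt2 had 1. CAGCTG, a subset of the CANNTG matches, was present in Tnni1 (1 match) and Tnnt2 (2 matches), 2 of 5 genes, and in 12.8% of all promoters; at the second start Tnni1 had 1 and Tnnt2 had 0. CATTCC on either strand was present in Tnnc1 and Tnnt2, 2 of 5, against 12.6% of all promoters, and Tnnt2 had 0 at its second start. TATAAA was present in Tnnt1 alone of the 5, from 30 to 25 bases before the start (-30 to -25), against 8.12% of all promoters. MEF2 sites and CArG boxes, searched by their 10-letter consensus on both strands, had 0 matches in the 5 windows (3.01% and 1.4% of all promoters held one). These matches are letters in a short window, and neither a match nor its absence is evidence of binding.

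**Figure D1:**
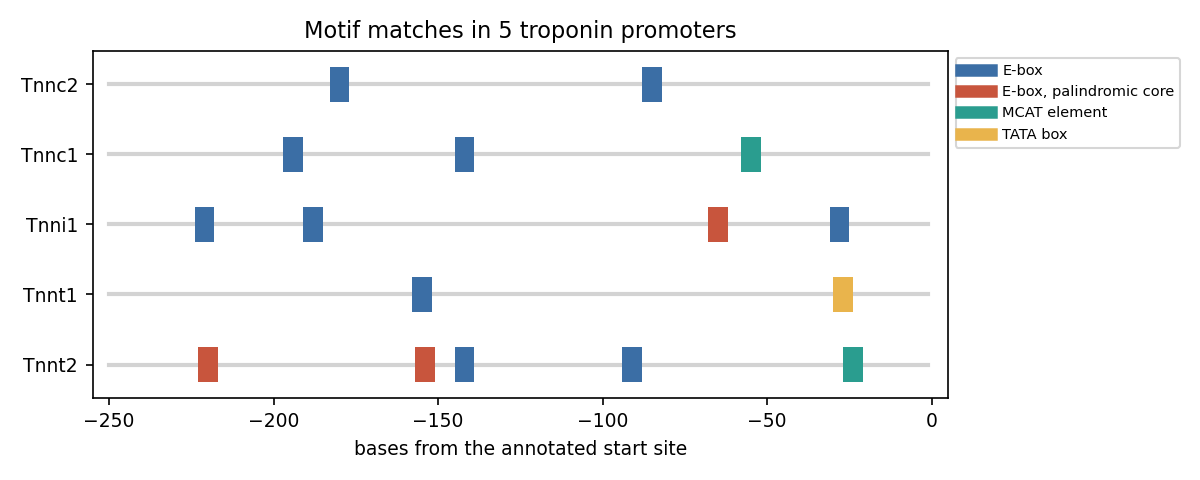
Positions of motif matches in the 250 bases before the annotated start of 5 troponin genes; the x axis is in bases from the start, and each bar spans 1 match. E-boxes are blue, or red where the letters are CAGCTG; all 5 genes have an E-box, Tnnc1 and Tnnt2 also have an MCAT match, and Tnnt1 has the TATA match.

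Signals are MAS5 intensities, which have no unit and are comparable between arrays for 1 probe set but not between probe sets. All 7 troponin genes were lower in pyruvate cells on their brightest probe set. The signal left in pyruvate cells ranged from 7.24% of the untreated mean for Tnnc2 to 47.7% for Tnnt2, with a median of 19.9% over the genes. Log2 changes below are pyruvate minus untreated on the scale log2(signal + 16), which understates the change of dim probe sets. The median over the 7 genes was -2.17, while the median of the 10685 genes tested was 0.03. Of the 11 probe sets 9 had a mean over the arrays above the filter on dim signals (about 30.3), and these 9 were below the adjusted p of 0.05 in limma in the direction of lower. In the same fit 15.9% of the 22519 probe sets tested were called lower. In these 9 probe sets the 3 pyruvate arrays lay below all 3 untreated arrays, a pattern that 22.5% of all probe sets showed (45.4% counting both directions). All 9 changed by -1 or lower, as 0.524% of all probe sets did. Since the genes were chosen on this contrast and some passed the filter only through their untreated signal, nothing is read from these counts. In RNA from whole cultures, fewer cells expressing a gene and less RNA in each cell cannot be told apart.

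**Figure D2:**
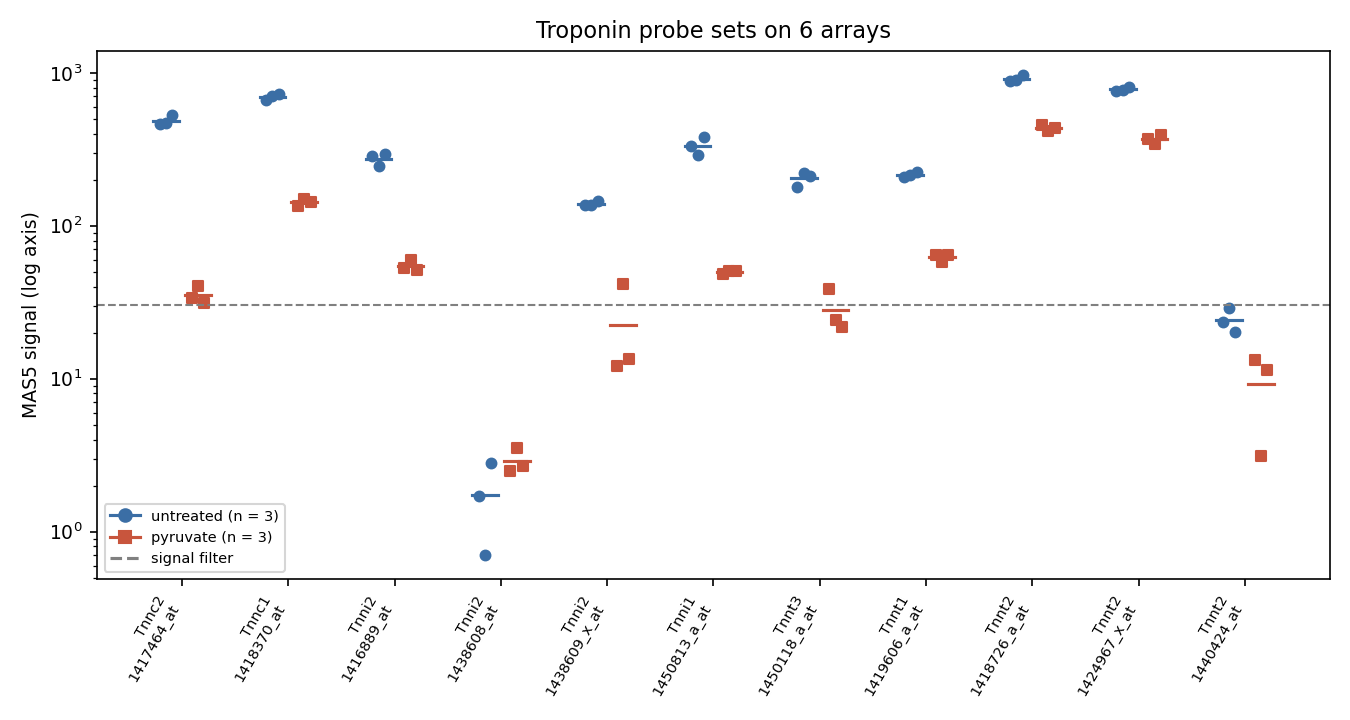
MAS5 signal (log axis) of the 11 troponin probe sets on the 3 untreated (blue circles) and 3 pyruvate (red squares) arrays, with group means as short bars and the signal filter as a dashed line. In the 9 probe sets above the filter all red squares lie below all blue circles; the dim Tnni2 probe set 1438608_at lies near the bottom of the scale in both groups.

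Tnnc2 showed the largest drop of the 7 genes. It encodes the fast skeletal isoform of the calcium-binding subunit (probe set 1417464_at) and had signals of 460.9, 469.9 and 528.5 on the untreated arrays and 33.8, 40.6 and 31.2 on the pyruvate arrays. The lowest untreated array was 11.4-fold above the highest pyruvate array, so the groups were far apart. The group means were 486 ± 36.7 and 35.2 ± 4.85 (SD, n = 3 each), a 13.8-fold difference in plain signal, and the log2 change was -3.30 (standard error, SE, 0.10). On this scale that change was the lowest of all 22519 probe sets tested, but after quantile normalization Acta1, skeletal actin, was marginally lower. The pyruvate mean of Tnnc2 was just above the filter, so the size of its change leans on how low signals are treated.

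Tnnc1, the troponin C of slow fibres and heart (probe set 1418370_at), stayed well above the filter in both groups. Its signals were 661.7, 706.6 and 724.1 on the untreated arrays and 135.4, 150.1 and 142.6 on the pyruvate arrays. The arrays of each group lay close together, with means of 697 ± 32.2 and 143 ± 7.35. This left 20.5% of the untreated signal, and the log2 change was -2.17 (SE 0.06, 95% interval -2.31 to -2.03).

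The troponin I genes, whose products are the inhibitory subunit, changed by similar amounts. Tnni1, the slow isoform (probe set 1450813_a_at), had 329.8, 291.2 and 379.8 on the untreated arrays and 48.4, 50.9 and 50.5 on the pyruvate arrays. Untreated values were the more scattered, with a coefficient of variation of 13.3% against 2.69%, and still lay far above the pyruvate values. Means were 334 ± 44.4 and 49.9 ± 1.34, and the log2 change was -2.40 (SE 0.10).

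Tnni2, the fast isoform, was read by 3 probe sets that did not give one picture. The brightest, 1416889_at, had 285.3, 244.7 and 292.7 on the untreated arrays and 52.6, 59.9 and 51.0 on the pyruvate arrays, for a log2 change of -2.04 (SE 0.10). The probe set 1438609_x_at had 135.7, 136.2 and 144.7 on the untreated arrays and 12.1, 41.8 and 13.4 on the pyruvate arrays. Its second pyruvate array stood above the other two, and its log2 change of -2.09 became -2.43 without that array and -1.25 with a pseudocount of 64. The remaining one, 1438608_at, was built from the same accession but was at or below 3.5 on every array, far under the filter, with overlapping groups, so a change was not detectable there.

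Troponin T, the tropomyosin-binding subunit, had the widest range among its isoforms on the log2 scale used here. It also had 3 genes, against 2 for C and 2 for I. The difference of Tnnt3 from Tnnt2 was -1.29, and that of Tnnc2 from Tnnc1 was -1.13. With a pseudocount of 64 these differences were -0.57 and -0.59, so T did not have the widest range there. Tnnt3, the fast isoform (probe set 1450118_a_at), had 179.5, 221.4 and 209.9 on the untreated arrays and 38.8, 24.0 and 21.7 on the pyruvate arrays. The first pyruvate array was the highest of its group, and 2 of the 3 were under the filter level. The means were 204 ± 21.6 and 28.2 ± 9.28, and the SE of the log2 change of -2.33 was 0.15, the widest among the 7 brightest probe sets. Because these pyruvate signals were low, a pseudocount of 64 gave -1.54.

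Tnnt1, the slow isoform (probe set 1419606_a_at), had 208.7, 215.5 and 223.4 on the untreated arrays and 64.2, 57.7 and 64.8 on the pyruvate arrays. Both groups were tight and clearly apart. The pyruvate mean was 28.8% of the untreated mean (62.2 ± 3.94 against 216 ± 7.36), and the log2 change was -1.57 (SE 0.09).

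Tnnt2, the cardiac and embryonic isoform, kept the most signal. Its probe set 1418726_a_at had 878.6, 895.3 and 970.2 on the untreated arrays and 455.8, 416.1 and 436.6 on the pyruvate arrays. The groups did not overlap, but the lowest untreated array was only 1.93-fold above the highest pyruvate array. The log2 change was -1.04 (SE 0.06, 95% interval -1.17 to -0.91), and this interval lay above those of the other 6 genes. A further probe set, 1424967_x_at, gave nearly the same values, with means of 781 ± 25.9 and 367 ± 27.4 and a log2 change of -1.06. The Tnnt2 probe set 1440424_at was under the filter, at 23.6, 28.8 and 20.1 untreated and 13.2, 3.1 and 11.4 with pyruvate.

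**Figure D3:**
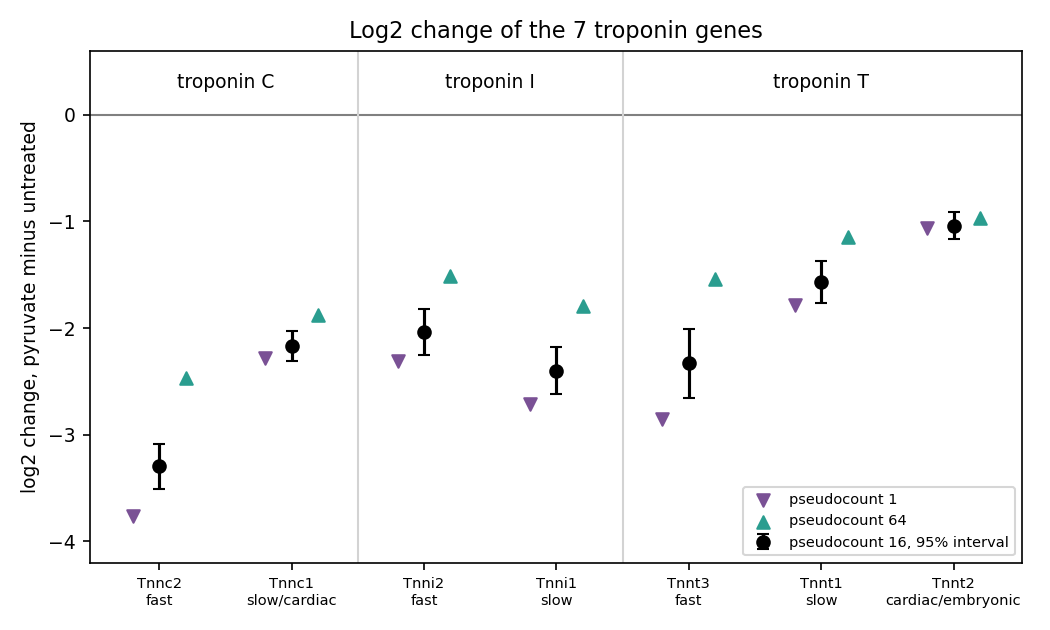
Log2 change (pyruvate minus untreated) of the brightest probe set of each troponin gene, ordered by subunit and then isoform; black circles with 95% intervals use the pseudocount of 16, and the triangles use 1 and 64. Tnnc2 is lowest and Tnnt2 highest at each pseudocount, and the spread between the genes narrows as the pseudocount grows.

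On the log2 scale used above, the order of the 7 changes, from the largest drop, was Tnnc2, Tnni1, Tnnt3, Tnnc1, Tnni2, Tnnt1 and Tnnt2. The middle of this order depended on the pseudocount. With a pseudocount of 1, Tnnc1 (-2.28) dropped less than Tnnt3 (-2.85), Tnni1 (-2.71) and Tnni2 (-2.31). With a pseudocount of 64, Tnnc1 (-1.88) dropped more than Tnni1 (-1.80), Tnnt3 (-1.54) and Tnni2 (-1.51). The neighbours Tnni1, Tnnt3, Tnnc1 and Tnni2 had overlapping 95% intervals, and overlap alone does not settle their order. Of these genes only Tnni1 and Tnni2 were compared with each other array by array, as given below. By subunit the median log2 changes were -2.73 for C (2 genes), -2.22 for I (2 genes) and -1.57 for T (3 genes). By isoform the 3 fast genes had a median of -2.33 (-3.30 to -2.04) and the 2 slow genes one of -1.98 (-2.40 to -1.57), so the classes overlapped.

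Within a subunit, the fast isoform was not always the one that dropped more. For C, the log2 change of Tnnc2 was below that of Tnnc1 by a difference of -1.13, and array by array the shift of their log2 ratio from the untreated mean was -1.10, -1.05 and -1.24 in pyruvate cells and between -0.07 and 0.06 in untreated cells. For T, the change of Tnnt3 was below that of Tnnt1 by a difference of -0.76, with ratio shifts of -0.47, -0.80 and -1.02 in pyruvate cells. For I the difference ran the other way: Tnni2 changed less than Tnni1 by 0.36, with ratio shifts of 0.36, 0.45 and 0.28 in pyruvate cells and of -0.09 to 0.07 in untreated cells. Tnnt1 was below Tnnt2 by a difference of -0.53. Each of these differences kept its sign at pseudocounts of 1 and 64 and after quantile normalization, though the sizes moved: from -1.48 to -0.59 for C, from -1.07 to -0.39 for Tnnt3 against Tnnt1, from -0.71 to -0.18 for Tnnt1 against Tnnt2 and from 0.40 to 0.29 for I. They come from the contrast that chose the genes and were not tested.

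Variation between arrays of 1 group, which the choice of genes did not use, ran partly together across the 7 genes. The third untreated array was the highest of its group for 6 of the 7, with Tnnt3 as the exception, and was above its group mean for all 7, by 0.05 to 0.19 on the log2 scale. Over the 10685 genes tested the same array was highest in 35.3%. It was also highest for 6 of the 7 tested markers of myotubes; what part these cells have in the excess was not tested. In pyruvate cells the order was mixed, with the second array highest for 4 genes, the first for 2 and the third for 1. Tnnt3 spanned the most there, from -0.21 to 0.33. After quantile normalization the second pyruvate array was highest for 3 troponin genes, the first for 2 and the third for 2. As deposited, the second pyruvate array was highest in 31.9% of all genes tested and for 5 of the 7 tested myotube markers. These are counts over few arrays and carry no test.

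**Figure D4:**
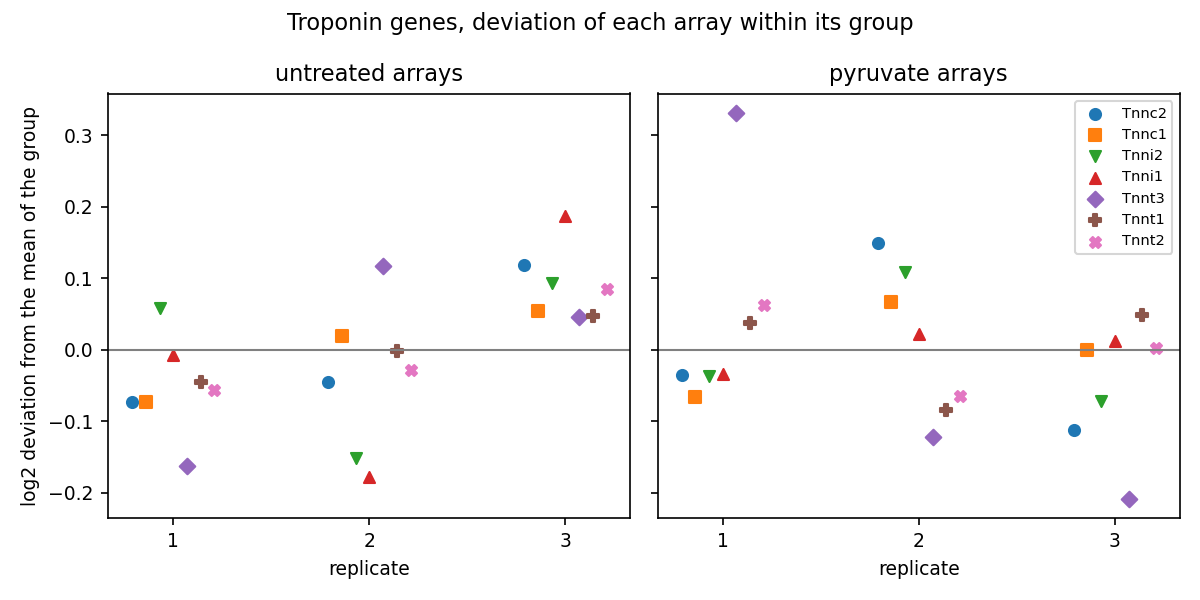
Deviation of each array from the mean of its group, in log2 units, for the brightest probe set of the 7 troponin genes; the x axis is the replicate number, which has no order. In the untreated panel all 7 symbols of replicate 3 lie above 0; in the pyruvate panel the symbols are mixed and Tnnt3 has the widest span.

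The labelled cell type was read from marker genes. Of 8 myoblast markers 7 passed the signal filter, 3 of them lower, 2 higher and 2 not passing the test. Over all genes tested 14.5% were called lower and 20.7% higher. The lower markers were Myf5 (log2 change -0.65), Cdh15 (-0.39) and Itga7 (-0.21). The higher ones were Myod1, at 1269 ± 77.0 untreated and 1525 ± 23.3 with pyruvate, and Ncam1 (0.17). Of the other 5 tested Ncam1 probe sets 2 were called lower and 2 higher. Pax7, the satellite cell factor, was under the filter at 26.5 and 20.5. Myotube markers moved with the troponins: of 8, 7 were tested and 6 were lower. Their summed signal was 4869 to 5204 on untreated arrays and 675 to 861 on pyruvate arrays, and none was listed at 0 on any array. Among them Mymk, the membrane protein that drives myoblast fusion, went from 512 ± 28.6 to 115 ± 11.5, and Myh3, embryonic myosin heavy chain, from 149 ± 9.36 to 26.8 ± 4.50. What part a smaller share of differentiating cells has in the troponin values was not tested. Of 10 cardiac markers only 3 passed the filter: Nppb was called lower (-0.42), and Gata4 and Mybpc3 did not pass the test. Myh6, cardiac myosin, was under the filter at 7.87 and 5.07. Of the smooth muscle, adipocyte and fibroblast markers, 3 of 5, 1 of 4 and 4 of 6 measured ones passed the filter, of which 1, 0 and 0 were lower and 1, 0 and 1 were higher. Their summed signals were 5828 to 6034, 98.4 to 135 and 3391 to 3678 on untreated arrays. On pyruvate arrays the sums were 6917 to 8090, 100.2 to 167 and 4205 to 4397. Such sums follow their brightest probe sets. The smooth muscle sum was mostly Acta2 (means of 3752 untreated and 5384 with pyruvate) and Des (1835 and 1735). The fibroblast sum was mostly Col1a2 (3062 and 3850). After quantile normalization the log2 changes of Acta2 and Col1a2 were only 0.17 and 0.13.

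The remaining troponin gene of the mouse, Tnni3 (cardiac troponin I), was under the filter on its probe set, with 12.7 ± 4.06 untreated and 5.87 ± 4.68 with pyruvate and overlapping arrays. At that level a change in either direction was not detectable. It lies directly beside Tnnt1 in the RefSeq gene table of GRCm38.p6, with 0 protein-coding genes between them. Tnni1 and Tnnt2, and likewise Tnni2 and Tnnt3, lie with 1 protein-coding gene between them. These genes, chosen after their values were seen, were Lad1, under the filter with means of 25.9 and 36.0, and Lsp1, a leukocyte actin-binding protein, which fell from 581 ± 66.0 to 357 ± 30.2 (log2 change -0.68, SE 0.08, limma adjusted p = 0.00012). Outside the Tnni1 and Tnnt2 pair, Phlda3 rose by 0.64 (limma adjusted p = 1.3e-05) and Csrp1 by 0.23 (limma adjusted p = 0.0079). Pkp1 there did not pass (-0.13). Outside the Tnni2 and Tnnt3 pair Igf2, a growth factor, fell from 60.9 ± 1.42 to 23.7 ± 11.6 (limma adjusted p = 0.0033). Ctsd there rose by 0.33 (limma adjusted p = 0.00033), and Syt8 (-0.099) and Mrpl23 (0.037) did not pass. Next to the Tnnt1 and Tnni3 pair, Ppp1r12c (-0.12) and Syt5 (0.28) did not pass and Eps8l1 was under the filter.

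Related genes were read from 7 lists, which are not independent of earlier results on these arrays. Over all genes tested 14.5% were called lower and 20.7% higher, 35.1% in all. Among partners of troponin on the thin filament, 6 of 13 tested genes fell and 4 rose, with a median of -0.07. The sarcomeric actins Acta1 (982 ± 46.8 to 87.2 ± 8.30) and Actc1 (801 ± 44.9 to 69.9 ± 5.08) fell, with log2 changes of -3.28 and -3.25. Neb, the nebulin ruler of the filament, fell (-2.23) and so did the pointed-end cap Tmod1 (-0.72), with a limma adjusted p of 0.0034 for Tmod1, the largest of the 4. Those that rose, chosen once their values were known, were the smooth muscle actins Acta2 (0.51) and Actg2 (0.34) and tropomyosins Tpm4 (0.36) and Tpm3 (0.25). After quantile normalization Acta2 was at 0.17 (limma adjusted p = 0.011), and Tpm3 and Tpm4 were no longer called (limma adjusted p = 0.10 and 0.075), which left 6 lower and 2 higher, whereas median centring gave 5 and 5. Of the other 4 Tpm3 probe sets 2 were called lower and 1 higher. The tropomyosins Tpm1 and Tpm2, on which troponin T sits, did not pass on their brightest probe sets (0.13 and 0.03), but 1 of 2 and 2 of 3 dimmer ones were called lower.

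Genes of calcium release and uptake, which supply the calcium that troponin C senses, had 7 of 17 lower and 1 higher, with a median of -0.28. The genes with the largest drops were Srl (sarcalumenin, -2.15), Casq2 (calsequestrin of slow fibres and heart, -1.62), Atp2a1 (the fast calcium pump, -1.31) and Ryr1 (the calcium release channel, -1.29). Their limma adjusted p-values ran up to 6.4e-06, for Ryr1. Jph2, a junctophilin named after its value was seen, rose by 0.22 on its brightest probe set; its other tested probe set was not called. No gene of the list was called higher with eBayes without the trend, with the mean over probe sets, or without untreated replicate 1 or 3 or pyruvate replicate 2 or 3. Atp2a2, the slow and cardiac calcium pump, was at -0.01 on its brightest probe set and did not pass, whereas its other 4 tested probe sets were called lower. Without pyruvate replicate 3 this list had 5 genes lower and 0 higher, and among the 5 members bright enough for a filter at the 75th percentile 0 were lower and 1 was higher.

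Other fast fibre sarcomere genes had 4 of 5 lower and 0 higher, with a median of -1.74, and 5 of the 10 listed were under the filter. Mybph (a myosin-binding protein, -2.90), Mylpf and Myl1 (fast myosin light chains, -2.53 and -1.74) and Actn3 (fast alpha-actinin, -0.90) fell, with limma adjusted p-values no higher than 1.0e-05. Other slow fibre sarcomere genes gave little to set beside Tnni1 and Tnnt1: 8 of 10 were under the filter, and the tested ones, Myl3 at -0.05 and Ankrd2 at 0.05, did not pass.

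Regulators known to act on muscle genes had 10 of 19 lower and 2 higher, with a median of -0.25. Myog, myogenin, fell from 1738 ± 44.1 to 212 ± 40.1, a log2 change of -2.96 (limma adjusted p = 1.1e-08) within the range of the troponin changes. The cofactor Vgll2 (-1.10), Mef2a (-0.73) and Myf5 (-0.65) fell as well. Eya1 and Myod1, named after their values were seen, rose by 0.41 and 0.26. The 1 other tested probe set of Eya1 was also called higher, and Myod1 had no other tested one. With the mean over all probe sets of each gene, those under the filter included, 9 of the list were lower and 0 higher. Sox6, a repressor of slow fibre genes, was under the filter in both groups.

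Among factors that splice troponin T pre-mRNA and other muscle transcripts, 2 of 9 were lower and 1 higher, with a median of -0.13. Rbm24 (-2.61) and Celf1 (-0.16) fell, while Mbnl1 rose by 0.46 on its brightest probe set only (0 of 2 others called). The Celf1 call was marginal on its brightest probe set (limma adjusted p = 0.041), while its other 4 tested probe sets were all called lower. The list had 1 gene lower with no filter, the stricter filter, median centring or eBayes without the trend. The same held with any array but pyruvate replicate 1 left out. With the mean over the probe sets of each gene, 4 were lower and 1 higher. The array signals here do not separate spliced forms of Tnnt2 or Tnnt3. Among genes of calcium control in smooth and non-muscle actomyosin, 4 of 6 rose and 0 fell, around a median of 0.23. Tagln (transgelin) rose by 1.41, Cnn2 (calponin 2) by 0.38, Tagln2 by 0.26 and Cald1 (caldesmon) by 0.20, the last not called after quantile normalization (limma adjusted p = 0.25), where Cnn3 was called lower at -0.23.

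**Figure D5:**
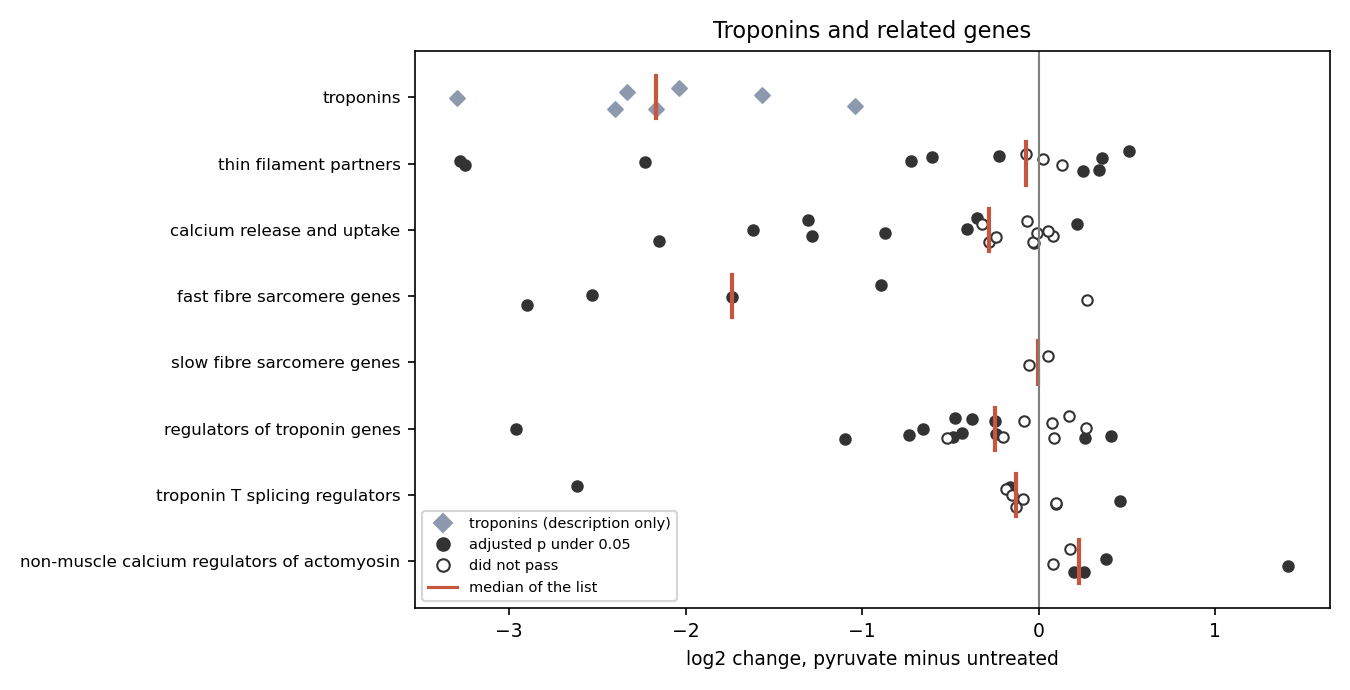
Log2 change (pyruvate minus untreated) of the 7 troponin genes (grey diamonds, no test) and of tested genes in 7 related lists (circles, filled where the limma adjusted p was under 0.05); red bars are medians. The troponins lie between -3.30 and -1.04, while the median of the thin filament list is -0.07 and that of the fast fibre list -1.74.

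The genes whose 6-array profile lay nearest to the mean troponin profile were all lowered, which nearness to a lowered profile fixes in advance. Nearness was the root mean square distance in log2 units between profiles centred on the untreated mean, over 10370 other genes. Srl was nearest (0.10), followed by Mymk (0.10), Neb (0.13), Myh3 (0.15) and Mamdc2 (0.18), a matrix protein. Among the troponins Tnnc1 lay at 0.07 from the mean profile and Tnnc2 and Tnnt2, at 0.83 and 0.76, farther than any of these 5 genes. With 3 arrays a group, the distance rests mainly on the size of the drop.

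Across the arrays as a whole, pairs correlated at 0.985 to 0.991 within groups and at 0.979 to 0.983 between groups over probe sets, which are not independent replicates, and no pair shared more than 0.953% of its values. Median signals ranged from 30.3 to 33.0.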

How the data were processed

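RNA of 3 untreated and 3 pyruvate samples was measured on Affymetrix mouse genome expression arrays as biotin-labelled cRNA, per the labels' protocols. The deposited values are MAS5 signals, an intensity on a linear scale, per the submitters' processing notes. Not given in the sources used here are the MAS5 version and its settings. The trimmed mean (2% at each end) was 150.0 on all 6 arrays, so the authors' scaling was kept, and a change in total RNA cannot be seen. The number of arrays limits the precision.

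Of 45101 probe sets, 64 controls were left out and 34945 carried 1 gene symbol in the platform annotation. Of these 34741 matched the RefSeq gene table (GRCm38.p6) by Entrez identifier, and 0 symbols changed. Each gene was read from the probe set with the highest mean. Probe sets entered the fit if their mean of log2(signal + 16) reached 5.53, the median without controls, leaving 22519. The groups were compared with limma 3.58.1 (R 4.3.3; lmFit, eBayes with trend, two-sided, no block). P-values were adjusted by Benjamini-Hochberg over these 22519, and 0.05 was the threshold. The step was tested on simulated data. Figures used matplotlib 3.10.9.

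The troponin genes, the 7 related lists, the marker lists and the rule for naming were chosen with earlier results of these data known. From each list the rule named up to 4 called genes with the largest change, or 2 tested ones where none was called, and added the 5 genes of nearest profile. Alternatives were pseudocounts of 1 and 64, no filter and a filter at the 75th percentile, quantile normalization, median centring, cyclic loess, eBayes without the trend, array weights, a replicate block, the mean over probe sets of a gene and leaving out each array.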

Additional observations from a re-analysis of the deposited data

Results flagged for a closer look

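Hybridisation spike-in controls, which are outside the comparisons above, were higher on the pyruvate arrays. Over 18 such probe sets the mean log2 signal was 9.17 untreated and 9.75 with pyruvate, a difference of 0.576, and the lowest pyruvate array (9.53) lay above the highest untreated array (9.21). An exact two-sided permutation test gave p = 0.1, the smallest that 3 against 3 arrays allow. This moved in the direction opposite to the troponins and in the same direction as the genes called higher. Of those, Acta2, for example, changed by less (0.51) and Tagln by more (1.41). Its part in those rises was not tested, and no alternative scaling used these controls. The groups of 3 arrays are too small for a test of single outlying arrays.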

How the results depend on the processing

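The count of troponin probe sets called lower, which the choice of genes largely fixes and which supports nothing, was 9 under the alternatives other than the stricter filter, and 9 to 9 with each array left out in turn. A filter at the 75th percentile (signal about 154) kept only 3 probe sets, all called lower, and its median over the 2 genes left was -1.60. The median over 7 genes was -2.31 with a pseudocount of 1 and -1.54 with 64, and ran from -2.21 to -2.14 when arrays were left out. The Tnni2 probe set 1438609_x_at moved most, to -2.80 and -1.25. The calcium list had 1 call under the stricter filter, where 5 members were left (higher, against 7 lower and 1 higher), and 5 to 8 calls when arrays were left out, the 5 without pyruvate replicate 3. The splicing list had 5 calls with the mean over probe sets, 4 lower and 1 higher. The other 5 lists kept their counts within 1.5 times under the alternatives in which they had members. Same-numbered arrays did not pair: correlations of their deviations were -0.01, 0.01 and 0.02, and not every array correlated best with its own number. With the replicate block the troponin probe sets called lower were 9 and the calls over all probe sets 6917 instead of 7250. Probe sets near the filter, such as pyruvate values of Tnnc2 and Tnnt3, limit how large a drop can be measured.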
